A study of Saccharomyces cerevisiae with 24 samples.

Results

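The recovery phase of a heat shift was examined in baker's yeast, Saccharomyces cerevisiae. The comparison sets the 3 arrays taken 2, 4 and 8 h after a move to 37 °C against the 3 arrays taken at 15, 30 and 60 min of the same culture. These arrays were chosen by temperature and sampling time alone, and they are 6 of the 24 arrays of the series. The 0 min array of the heated culture was used only to say whether a gene had come back to its starting level, and its 24 h array was left out of the comparison.

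All cultures were of strain S288C, a laboratory strain, grown in SD medium at 28 °C and then kept at 37 °C (heat), 10 °C (cold) or, for the control, still 28 °C. Each of the 3 cultures was sampled at 8 times, once per time, and RNA was measured on a 1-colour array. The heat samples were amplified with a Roche kit together with an Ambion kit, and the cold and control samples with the Ambion kit alone, so temperature and amplification cannot be told apart in levels set across cultures. The main comparison lies within the heated culture and one amplification procedure.

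A sudden rise in temperature sets off a broad and mostly short-lived response in yeast. The factor Hsf1 switches on genes for chaperones, which refold or clear damaged proteins, and Msn2 and Msn4 switch on a general stress program that includes trehalose, glycogen, antioxidant and respiratory genes. At the same time the genes that build ribosomes, the most costly product of a growing cell, are turned down, and many of these changes relax as cells adapt.

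Values are log2 RMA levels, 1 per gene, for 5449 genes. A difference is the log2 mean at 2 to 8 h minus that of the first hour and comes with its standard error (SE) from a limma fit, with n = 3 arrays per window. A gene is said to have risen or fallen only where its Benjamini-Hochberg adjusted p, taken over the 5449 genes, was under 0.05. No time was sampled again, so the times of a window stand in for replicates and p-values measure the spread between those times, not between cultures. In bulk RNA, fewer cells of a type and less RNA per cell cannot be told apart.

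The median level of the 6 arrays lay between 10.76 and 10.79, and the median SD of a gene within a window was 0.23 at 2 to 8 h and 0.24 in the first hour. Probe sets for other species gave a bound for dim signals of 6.54, and 285 genes had a mean below it over the 6 arrays. At 0 min the heat array already stood apart from the control array (r = 0.703 across genes, 2397 genes or 44.0% at least 2-fold apart), whereas the cold and control arrays differed this much in 0.551% of genes. Levels are therefore compared within a culture only. The labels give no mating type. The 4 alpha-cell markers had medians of 12.99 to 14.19 over the 24 arrays and the 6 a-cell markers medians of 6.59 to 8.57.

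Between the first hour and 2 to 8 h, 42 genes (0.771% of 5449) passed the threshold, 37 higher (0.679%) and 5 lower (0.0918%). Of the 37 called higher, 12 belonged to the ribosome biogenesis list, and 10 had been within 1.5-fold of their starting level in the first hour. Of these 10, 7 were at least 2-fold above that level at 2 to 8 h. In 3 of the 37 (GAS4, SPO74 and JJJ3) both window means lay below the dim bound, so no size is given for them. Those that fell were CYC7, BOP2, OM14, TDA10 and YBL086C. An unadjusted p under 0.05 was found for 1435 genes. All 3 late arrays lay above all 3 first-hour arrays in 907 genes (16.6%) and below them in 912 (16.7%), and 315 genes were at least 2-fold higher and 152 at least 2-fold lower. The list of 42 rests on single arrays. The count was 0 without the 30 min, the 4 h or the 8 h array, 14 without the 2 h array, 32 without the 60 min array and 41 without the 15 min array, of which 16 were among the 42. It was also 0 after a renewed quantile normalization. All 42 genes kept their sign in each of these settings. Where the windows of a gene do not overlap, leaving out 1 array cannot turn its sign, so this adds no support. The plot of group medians over time shows the shape behind these counts.

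**Figure D1:**
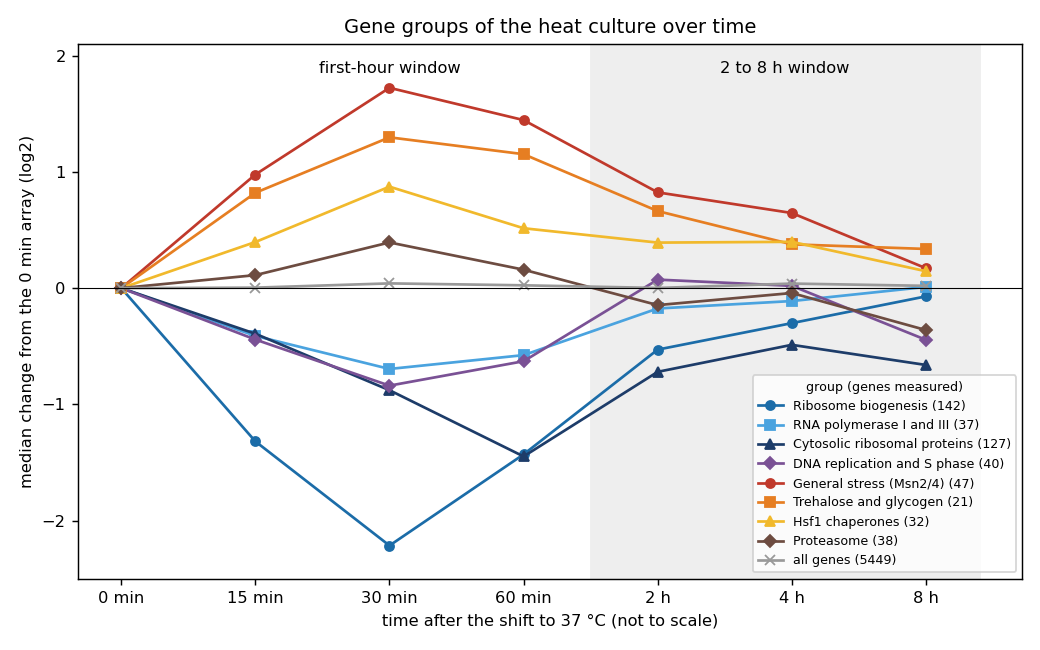
Median change from the 0 min array (log2) of 8 gene groups and of all genes at each time in the heated culture, with the 2 to 8 h window shaded and time not drawn to scale. Ribosome biogenesis genes lie lowest at 30 min (-2.21) and at -0.07 at 8 h, and general stress genes lie highest at 30 min (1.72) and at 0.17 at 8 h.

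The ribosome biogenesis group, 142 nucleolar and export factors that cut, modify, fold and ship pre-ribosomal RNA, gave the main upward movement. Its median difference was 1.38, against 0.00 over all genes, and 139 of 142 members had a positive one. Of the 142 members, 12 rose and none fell, against 0.679% of all genes rising. In 123 members (86.6%) all late arrays lay above all first-hour arrays, against 16.6% of all genes. From the start, the group median stood at -1.32, -2.21 and -1.43 at 15, 30 and 60 min and at -0.53, -0.30 and -0.07 at 2, 4 and 8 h. The lowest first-hour array was that at 30 min for 118 members. The median stayed between 1.04 and 1.73 in all alternative settings.

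Among small-subunit factors, NAN1, a part of the processome that cleaves the small-subunit precursor, had 7.94, 6.92 and 7.02 at 2, 4 and 8 h, against 4.62, 4.51 and 4.48 at 15, 30 and 60 min. The windows were far apart, the 0 min level was 7.03, and the first-hour levels were all below the dim bound. NAN1 rose by 2.76 ± 0.28 (limma adjusted p = 0.0311), and with the first hour set at the dim bound it was still at least 1.69-fold higher.

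RRP12, which accompanies both subunits out of the nucleus, had 7.83, 8.88 and 8.54 in the late arrays, against 5.26, 5.004 and 6.57 in the first hour. It rose by 2.80 ± 0.44 (adjusted p = 0.0445), with the 0 min level of 8.60 among the late values. On 2 of the 3 first-hour arrays RRP12 was below the dim bound. With these set at the bound it was at least 3.65-fold higher. FYV7, an rRNA processing factor, had 7.13, 7.57 and 7.73 late, against 5.86, 5.75 and 5.77. Its first-hour values were all below the dim bound. It rose by 1.69 ± 0.20 (adjusted p = 0.0311), and was at least 1.92-fold higher against the bound. The bright members PNO1, SOF1 and RRP9, all small-subunit factors, and UTP30 rose by 1.36 ± 0.21, 1.10 ± 0.17, 1.09 ± 0.18 and 1.21 ± 0.19 (adjusted p of 0.0442 to 0.0476).

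Among large-subunit factors, ALB1, a shuttling 60S factor, had 8.74, 8.91 and 8.82 at 2 to 8 h, against 6.96, 5.67 and 6.48 in the first hour. The late values were tightly grouped, but all were under the 0 min level of 9.78. ALB1 rose by 2.46 ± 0.31 (adjusted p = 0.0311).

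CGR1 and RRS1, both needed to mature the large subunit, rose by 2.25 ± 0.28 and 2.09 ± 0.26 (adjusted p = 0.0311 for both). They differed in where they ended. CGR1 had 7.98, 8.78 and 8.30 late around a 0 min level of 8.58, while RRS1 had 8.21, 8.57 and 8.55, all above its 0 min level of 7.94. Their first-hour levels were 6.41, 5.67 and 6.24 for CGR1 and 6.52, 5.83 and 6.72 for RRS1. All those of CGR1 were below the dim bound, against which it was at least 3.52-fold higher. NOG2, a GTPase of late 60S assembly, had 12.12, 12.03 and 12.80, against 10.47, 9.97 and 10.80, and rose by 1.90 ± 0.29 (adjusted p = 0.0442). The NOG2 gene overlaps the small nucleolar RNA gene SNR191, which lies in its intron.

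NSR1, a nucleolin-like protein that binds rRNA and nuclear localisation signals, was among the bright members. It had 12.44, 12.68 and 12.49 at 2, 4 and 8 h, against 10.41, 9.28 and 10.73 at 15, 30 and 60 min. No late array overlapped the first hour, and all stayed under the 0 min level of 13.29. NSR1 rose by 2.40 ± 0.36 (adjusted p = 0.0442).

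The highest difference of any gene belonged to a member that did not pass. SSF1, a 60S assembly factor, averaged 9.88 ± 0.33 at 2 to 8 h and 6.76 ± 1.72 in the first hour (SD, n = 3 each), a difference of 3.11 ± 0.75 (adjusted p = 0.0682). Its first-hour levels were 7.07, 4.92 and 8.30 at 15, 30 and 60 min, each from 1 array, and that at 30 min was below the dim bound. Whether this spread is a course or array error was not tested. The 3 members with a negative difference were RIO1 (-0.25 ± 0.20), RSA1 (-0.17 ± 0.21) and ESF1 (-0.07 ± 0.15), chosen after their values were seen, and none passed.

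Genes around this group moved with it. TOD6, a Myb-like repressor that binds the PAC element of ribosome biogenesis promoters, had 9.10, 9.03 and 10.41 late, against 6.003, 6.23 and 7.46 in the first hour. It rose by 2.95 ± 0.49 (adjusted p = 0.0499) and stood around its 0 min level of 9.62. RRN11, a subunit of the core factor that brings RNA polymerase I to the rDNA, had 10.74, 10.88 and 11.16, against 9.33, 8.62 and 9.67, and rose by 1.72 ± 0.28 (adjusted p = 0.0499). It was the one member of the 37 RNA polymerase I and III genes to pass. The median of those 37 was 0.48, and 17 of them (45.9%) were higher without overlap, against 16.6% of all genes.

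AAH1, adenine deaminase of purine salvage, had 11.37, 11.80 and 11.67 late, against 9.52, 8.34 and 9.69, and rose by 2.43 ± 0.35 (adjusted p = 0.0437). It ended below its 0 min level of 12.35. Of the 28 purine and one-carbon genes AAH1 alone passed, 9 were higher without overlap (32.1%, against 16.6% of all genes) and the median was 0.17. IMD4, an IMP dehydrogenase of the GTP branch, was 1.46 ± 0.29 higher without passing (adjusted p = 0.0578).

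Further genes tied to rRNA or tRNA that rose stood outside these lists. BUD23 methylates 18S rRNA, EFG1 acts in 18S processing, ECM1 in 60S export and DUS1 in tRNA dihydrouridine formation. They rose by 1.10 ± 0.17, 1.62 ± 0.25, 1.36 ± 0.18 and 1.22 ± 0.19. EFG1 and BUD23 ended within 0.10 and 0.08 of their 0 min level, whereas ECM1 was still 0.82 below it. Other genes that rose were FCY21, of a purine and cytosine permease family (1.45 ± 0.22), ATC1 (1.68 ± 0.26) and the open reading frames YBL028C (2.42 ± 0.27), YMR244W (2.32 ± 0.31), YML108W (1.76 ± 0.23), YGR079W (1.68 ± 0.26) and YNL034W (1.13 ± 0.18). YBL028C had 7.08, 7.70 and 7.84 late, against 4.99, 4.85 and 5.55, and YMR244W ended 1.33 above its start. The first-hour levels of YBL028C and YNL034W were all below the dim bound, against which they were at least 2.01-fold and 1.39-fold higher. JJJ3, a J-protein, passed the threshold (adjusted p = 0.0317) with all 6 levels below the dim bound. The probe set of YNL034W may also bind other sequences.

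**Figure D2:**
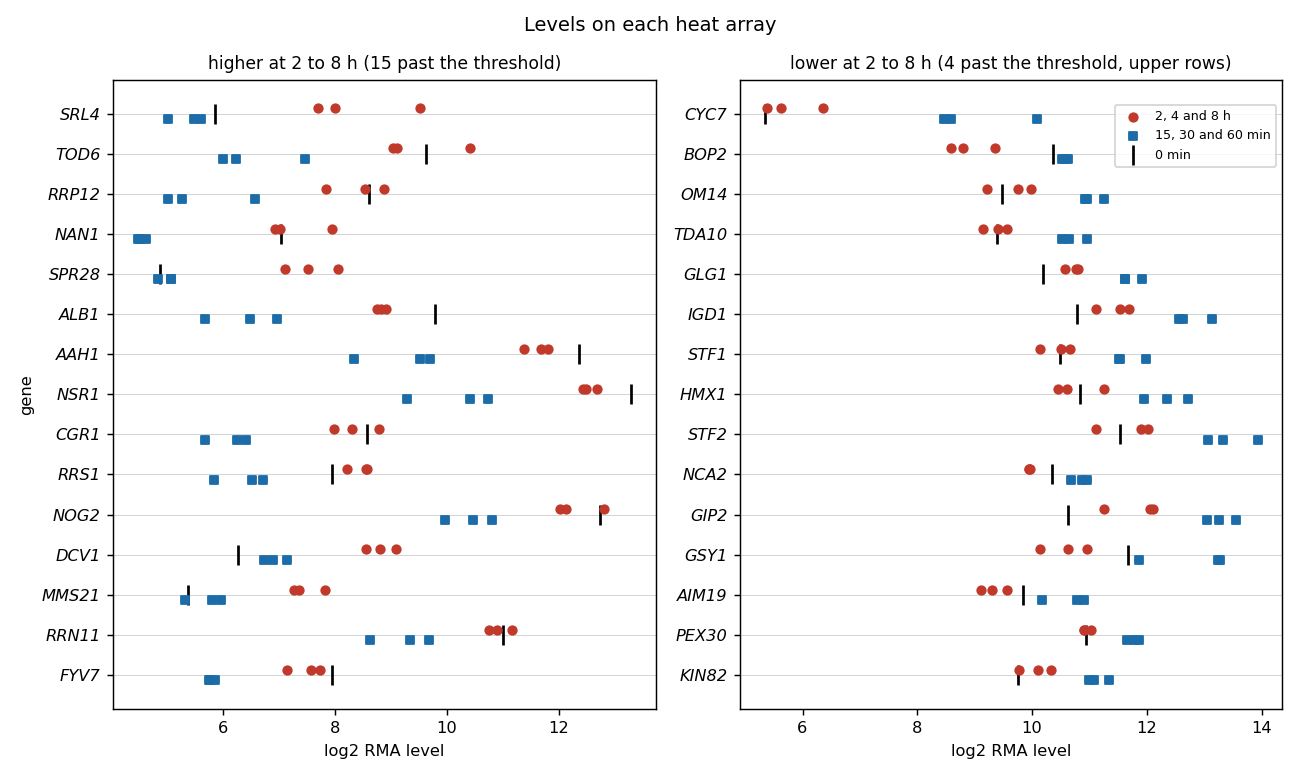
Log2 RMA level on each heat array for 15 genes that rose (left) and 15 taken as lower (right; CYC7, BOP2, OM14 and TDA10 passed the threshold, the other 11 filled the places by smallest p). Circles are the 2, 4 and 8 h arrays, squares the 15, 30 and 60 min arrays and bars the 0 min array. Only genes without overlapping windows were taken.

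The ribosomal proteins themselves, the structural parts of the ribosome, had small differences between the windows. None of 127 cytosolic ribosomal protein genes passed, 7 were higher without overlap (5.51%, under the 16.6% of all genes) and the median difference was 0.26. Their lowest first-hour array was at 60 min for 111 of 127, later than in the assembly factors. The median from the start was -0.39, -0.88 and -1.45 at 15, 30 and 60 min and -0.72, -0.49 and -0.66 at 2, 4 and 8 h. RPL33B, a large-subunit paralog, had 7.27, 7.94 and 8.18 late, against 6.49, 6.74 and 6.22 (1.31 ± 0.27, adjusted p = 0.0583). RPS14B differed by 0.71 ± 0.16 (adjusted p = 0.0646). Both have a near-identical paralog, so their probe sets may share signal with it. Over the alternative settings the group median ranged from -0.03 to 0.53. Translation factors and tRNA synthetases had medians of 0.21 and 0.30, and no gene of either list passed.

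On the falling side, the general stress group, 47 genes known as Msn2 and Msn4 targets, had a median difference of -0.94. Of the 47, 46 were negative, 1 fell (CYC7) and none rose, against 0.0918% of all genes falling. In 27 (57.4%) all late arrays lay below all first-hour arrays, against 16.7% of all genes. The group stood at 0.98, 1.72 and 1.45 above the start at 15, 30 and 60 min, and at 0.82, 0.65 and 0.17 at 2, 4 and 8 h. MOH1 was the member with a positive value (0.23 ± 0.49). In all settings the median lay between -1.45 and -0.58.

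CYC7, the cytochrome c isoform made under stress and low oxygen, had 6.36, 5.38 and 5.63 at 2, 4 and 8 h, against 8.47, 10.09 and 8.60 at 15, 30 and 60 min. The windows did not overlap, the late levels were all under the dim bound, and the 0 min level was 5.34. CYC7 fell by 3.26 on the log2 scale (SE 0.46, adjusted p = 0.0378). With the late window set at the dim bound it was at least 5.72-fold lower.

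The other genes that fell started from smaller displacements. OM14, a mitochondrial outer membrane protein, had 9.97, 9.75 and 9.22, against 10.95, 11.25 and 10.93, and fell by 1.39 (SE 0.23, adjusted p = 0.0499). TDA10 had 9.56, 9.40 and 9.15, against 10.52, 10.95 and 10.64, and fell by 1.33 (SE 0.19, adjusted p = 0.0437). Both ended near their 0 min levels of 9.48 and 9.39. YBL086C, of unknown function, ended within 0.07 of its start after a fall of 1.27 (SE 0.15, adjusted p = 0.0311).

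BOP2 followed another course. It had 9.35, 8.79 and 8.59 late, against 10.57, 10.63 and 10.53 in the first hour, where it was close to its 0 min level of 10.37. It fell by 1.67 (SE 0.22, adjusted p = 0.0311) and ended 1.46 below the start. The control culture also had a negative difference in BOP2 (-1.20), and heat minus control was -0.47 ± 0.35 (adjusted p = 0.469).

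Reserve carbohydrate genes were lower as a group without a member passing. All 21 trehalose and glycogen genes had negative differences, with a median of -0.57, and 11 were lower without overlap (52.4%, against 16.7% of all genes). GLG1, the glycogenin that primes glycogen, averaged 10.72 ± 0.12 late and 11.72 ± 0.17 in the first hour (difference -1.004 ± 0.17, adjusted p = 0.0522). GSY1, a glycogen synthase, had 10.63, 10.95 and 10.14, against 13.27, 13.25 and 11.87 (difference -2.22 ± 0.40, adjusted p = 0.0543). Its late levels were all below the 0 min level of 11.67. IGD1, which inhibits glycogen debranching, was at -1.33 ± 0.23 and GIP2, a phosphatase subunit of glycogen control, at -1.49 ± 0.27 (adjusted p = 0.0535 and 0.0538). TPS1, which makes trehalose phosphate, was at -0.52 ± 0.26 and NTH1, which breaks trehalose down, at -0.82 ± 0.34.

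In the lists of respiration and mitochondrial translation no gene passed, and the medians were negative. The respiratory chain and ATP synthase list had a median of -0.40 with 24 of 52 genes lower without overlap (46.2%), and the tricarboxylic acid cycle -0.68 with 10 of 17 (58.8%), against 16.7% of all genes. Mitochondrial ribosomal proteins were at -0.49, with 68 of 70 negative and 28 lower without overlap (40.0%), and the control culture stood at -0.17 in this list. COX14, an assembly factor of cytochrome oxidase, had 10.67, 11.01 and 10.84, against 11.68, 11.84 and 11.61 (-0.87 ± 0.17, adjusted p = 0.0557). CIT1, the mitochondrial citrate synthase, differed by -1.33 ± 0.30 (adjusted p = 0.0643). STF1 and STF2, linked to the ATP synthase inhibitor, differed by -1.24 ± 0.22 and -1.76 ± 0.31 (adjusted p = 0.0535 and 0.0538).

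All 38 proteasome genes had negative differences (median -0.44), none passed, and 23 were lower without overlap (60.5%, against 16.7% of all genes). RPN1, a subunit of the regulatory particle base, had 9.83, 9.97 and 9.83, against 10.51, 11.11 and 10.66 (-0.89 ± 0.20, adjusted p = 0.0624). RPN4, the activator of these genes, also had a negative difference, but its windows overlapped. It had 11.88, 11.02 and 12.15 late, against 11.65, 12.36 and 12.03 (-0.33 ± 0.32, adjusted p = 0.539). The oxidative stress list had a median of -0.65 and 15 of 28 genes lower without overlap (53.6%, against 16.7%), and none passed. HMX1, heme oxygenase, differed by -1.57 ± 0.28 (adjusted p = 0.0538) and ended within 0.07 of its start.

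The chaperones had smaller differences. None of 32 Hsf1 chaperone genes passed, the median was -0.33, and 9 were lower without overlap (28.1%, against 16.7% of all genes). HSP104, the disaggregase, had 11.61, 11.67 and 10.85 at 2, 4 and 8 h, against 12.25, 13.29 and 12.55 at 15, 30 and 60 min (-1.32 ± 0.33, adjusted p = 0.0742). SSA4, an inducible Hsp70, had 13.02, 12.32 and 12.47, against 12.95, 14.06 and 13.98 (-1.06 ± 0.33, adjusted p = 0.109). Its 2 h value lay above its 15 min value, so the windows overlapped.

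HSP26, a small heat shock protein that binds unfolding proteins, stayed high. It had 14.39, 14.31 and 13.87 late, against 13.58, 14.48 and 14.65 in the first hour and 11.60 at 0 min. The difference was -0.04 ± 0.31 (adjusted p = 0.942), and the late mean was still 2.59 above the start. HSP42, the other main small heat shock protein, differed by -0.15 ± 0.15, HSP12, a membrane-protecting stress protein, by -0.43 ± 0.23, and the catalase CTT1 by -0.40 ± 0.20. None of these passed, and levels above 14 lie near the top of the deposited range.

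Return to the 0 min level was uneven between the sides. In the first-hour mean, 703 genes were at least 2-fold off the 0 min array. At 2 to 8 h 380 of them (54.1%) were back within 1.5-fold of it, 318 were still displaced the same way, and 5 were at least 1.5-fold off on the other side. Of 384 genes that were lower in the first hour, 255 were back (66.4%), against 125 of 319 that were higher (39.2%). At 2 h alone, 265 of the 703 were within 1.5-fold. The 0 min level is 1 array, so its error is unknown, and no test was made.

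The counts of returned genes by group are set beside all genes of the same side. Of genes lower in the first hour, 255 of 384 returned (66.4%). On that side 95 of 117 ribosome biogenesis genes returned and 11 of 12 RNA polymerase I and III genes. All 8 displaced S phase genes returned, and 10 of 51 ribosomal protein genes. Of genes higher in the first hour, 125 of 319 returned (39.2%). On that side 7 of 8 oxidative stress genes returned and 1 of 8 chaperone genes. General stress genes, with 14 of 35, were close to the share of all genes. With a 2-fold limit in place of 1.5-fold the share of returned genes was 79.7%, and among genes at least 4-fold displaced it was 39.2%.

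**Figure D3:**
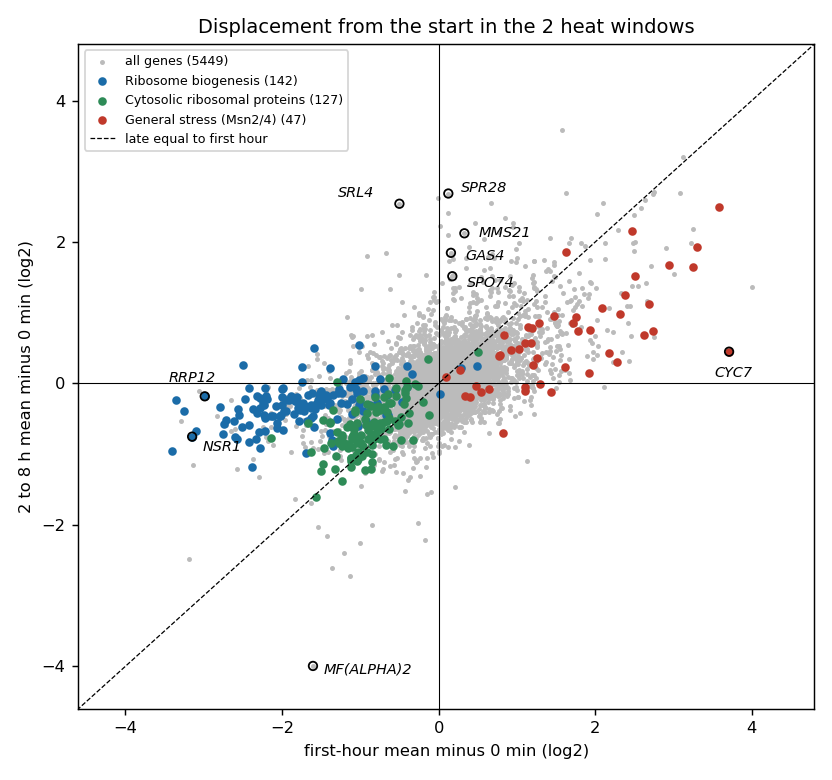
Each point is a gene, with its first-hour mean minus the 0 min level (horizontal, log2) against its 2 to 8 h mean minus the 0 min level (vertical, log2). Ribosome biogenesis genes spread to the left near the horizontal axis, general stress genes to the right below the dashed line of equality, and SPR28, SRL4, MMS21, GAS4 and SPO74 stand above the origin.

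Some genes departed from the start only after the first hour. By a limit set after the values were seen, 60 genes were within 1.5-fold of the 0 min level in the first-hour mean and at least 2-fold above it at 2 to 8 h, and 24 were at least 2-fold below it. Of the 37 genes that rose, 7 were of this kind: SPR28, SRL4, GAS4, SPO74, MMS21, YNL277W-A and YGR146C-A. YGR146C-A had 7.55, 7.05 and 7.08 late, against 5.87, 5.36 and 5.64, and rose by 1.60 ± 0.21 (adjusted p = 0.0311). Against the dim bound YGR146C-A was at least 1.61-fold higher. All 7 had a first-hour mean below the dim bound, as had 17 of the 37.

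SPR28, a septin made in sporulation, had 7.10, 7.51 and 8.04 at 2, 4 and 8 h, against 4.83, 5.06 and 5.07 at 15, 30 and 60 min and 4.86 at 0 min. The first hour and the start were level and below the dim bound, and every late array was above it. SPR28 rose by 2.56 ± 0.25 (adjusted p = 0.0311) and was at least 2.02-fold higher with the first hour at the bound. In the cold culture it lay between 4.46 and 5.45 over the same times and in the control culture between 4.42 and 4.73.

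MMS21, a SUMO ligase of the Smc5/6 complex, had 7.36, 7.83 and 7.27, against 5.32, 5.95 and 5.80, and rose by 1.79 ± 0.24 (adjusted p = 0.0311), at least 1.93-fold against the dim bound. Its 16 arrays of the other cultures were all below the dim bound, which was set on the heat arrays alone. SRL4 had 7.69, 7.99 and 9.51, against 5.01, 5.60 and 5.47, and rose by 3.04 ± 0.45 (adjusted p = 0.0442). Its first hour was below the dim bound on all 3 arrays, so the data bound the rise at 3.64-fold or more. In the control culture SRL4 was at 5.39 and 5.83 at 2 and 4 h but at 8.44 at 8 h, and heat minus control was 1.93 ± 0.82 (adjusted p = 0.234).

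GAS4, a glucanosyltransferase of the spore wall, had 6.21, 6.58 and 6.54, against 4.98, 4.55 and 4.73. It passed the threshold (adjusted p = 0.0311), but both window means were below the dim bound. Over both windows it lay between 5.68 and 6.69 in the cold culture and between 5.49 and 6.27 in the control culture, which were amplified differently. GAS2, its relative in spore wall assembly, rose by 1.40 ± 0.21 (adjusted p = 0.0442) at a much higher level (late mean 11.37, first hour 9.97). SPO74, a spindle pole body protein of meiosis, had 5.98, 5.88 and 6.42, against 4.65, 4.54 and 5.07. It passed the threshold (adjusted p = 0.0499) with all 6 values below the dim bound.

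Of 25 meiosis and sporulation genes 2 passed the threshold, SPR28 and the dim SPO74 (8.0%, against 0.679% of all genes). In this list 16 genes had a positive difference and 9 a negative one. Of the 25, 6 were higher without overlap (24.0%, against 16.6% of all genes) and 2 lower (8.0%, against 16.7%). The median was 0.32, against 0.19 in the control culture and 0.47 in the cold culture. Its summed level ran from 13.3 to 13.5 in the late arrays and from 13.1 to 13.8 in the first hour. The regulators IME2, a meiotic kinase, and NDT80, a meiotic transcription factor, differed by 0.20 ± 0.21 and -0.16 ± 0.18. The summed level of the 4 alpha markers was 13.83 to 15.05 late and 15.06 to 15.59 in the first hour. That of the 6 a markers was 11.13 to 12.23 late and 10.69 to 11.44 in the first hour, so their windows overlapped. No alpha marker was below the dim bound on any array, and AGA2 was the one a marker below it on all 6 heat arrays of the windows. Whether the mixture of cells had a part in the sporulation genes was not tested.

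DCV1 had been slightly up in the first hour. It had 8.79, 8.56 and 9.08, against 6.73, 7.15 and 6.90 and a 0 min level of 6.26, and rose by 1.89 ± 0.20 (adjusted p = 0.0311). The short reading frame YFR012W-A, its direct neighbour on chromosome VI, rose by 1.22 ± 0.15 (adjusted p = 0.0311) with 9.19, 9.38 and 9.44 late, against 8.08, 8.16 and 8.12. The 2 genes do not overlap in the R64 annotation.

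**Figure D4:**
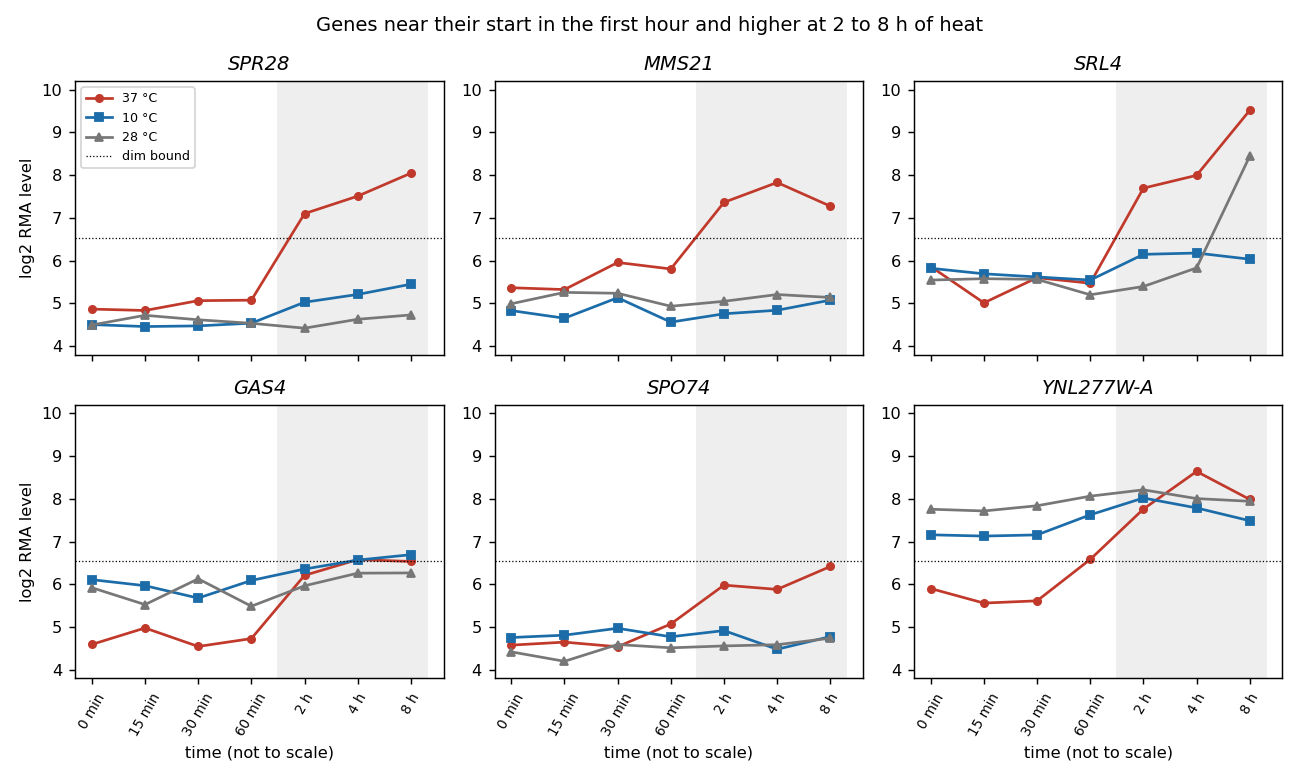
Log2 RMA level of 6 genes at each time in the 37 °C, 10 °C and 28 °C cultures, with the 2 to 8 h window shaded and time not to scale. The dotted line is the dim bound, which was set on the heat arrays alone. The 6 genes were taken because they were higher at 2 to 8 h of heat, so their step up after 60 min follows from that choice. In heat GAS4 and SPO74 lie below the dotted line at both 60 min and 2 h. SRL4 also reaches 8.44 at 8 h in the control culture, and levels of different cultures were amplified differently.

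The unshifted culture gave the same comparison without a shift, with the other amplification. In the control, 0 of 5449 genes (0%) passed the threshold with limma in the same comparison, 316 had an unadjusted p under 0.05, and 21 differed at least 2-fold. With array weights the count was 1732, in a fit that gave the 4 h array a weight of 24.6 and the 8 h array 0.12. The control medians were 0.02 for ribosome biogenesis, 0.01 for general stress and -0.07 for trehalose and glycogen. Over the 34 lists they ran from -0.47 for alpha mating type to 0.26 for a mating type, with -0.33 for sulfate assimilation.

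The difference between the heat and control differences was tested in a fit of 18 arrays, and 9 genes (0.165%) passed, all higher in heat. A kit effect that is constant on the log2 scale cancels in such a difference, in heat minus cold too. A compression that differs between kits does not cancel, and its part was not tested. The fit of 18 arrays uses 1 spread per gene for all cultures. The median SD in the first hour and at 2 to 8 h was 0.24 and 0.23 in heat, but 0.099 and 0.15 in the control culture. The SE can therefore understate the spread of the heat arrays. SPR28 had the smallest adjusted p, with 2.59 ± 0.26 (limma adjusted p = 0.000244). It was followed by DCV1 with 1.52 ± 0.22 (adjusted p = 0.0111) and MMS21 with 1.80 ± 0.27 (adjusted p = 0.0135). All 8 control and all 8 cold arrays of these genes lay below the dim bound, which was set on the heat arrays. Their SE therefore rests mostly on dim levels. With dim genes left out, 6 of the 9 were tested and 1 passed. NAN1 and RRN11 were at 2.61 ± 0.47 and 1.91 ± 0.35 (adjusted p = 0.0457 for both). FIG1, a membrane protein of mating, reached 6.94, 8.14 and 7.68 in heat at 2 to 8 h, against 5.93, 5.78 and 5.20 in the first hour. These first-hour levels of FIG1 were all below the dim bound, so they carry only a bound. FIG1 did not pass in the heat comparison itself (limma adjusted p = 0.0529). Its heat minus control value was 2.09 ± 0.37 (adjusted p = 0.0457). The others were ECM11, a meiotic protein (1.29 ± 0.24), YFR012W-A (0.89 ± 0.17) and YNL277W-A (2.03 ± 0.38). The mean of ECM11 over the 6 heat arrays was below the dim bound.

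This count rests on single arrays. Without the heat arrays at 15 min, 30 min, 60 min, 2 h, 4 h or 8 h it was 85, 3, 146, 49, 17 or 3. Without 1 control array it was 1 to 7, without the cold arrays at 2 h or 8 h it was 66 or 17, and without any other cold array it was 3. None of the 9 was lower in heat. The 5 lowest by p that filled the places were SER3, VPS55, COX14, RSM10 and ICY1, between -1.05 and -0.76 with adjusted p of 0.0695. SER3, which opens serine synthesis, had 12.25, 12.26 and 11.71 late in heat, against 13.14, 13.13 and 13.01, and its 0 min level was 13.25. In the 142 ribosome biogenesis genes the median of this difference was 1.37 and 1 gene passed, and in the 47 general stress genes it was -0.995 and none passed.

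The cold culture differed in the opposite direction in these groups. In heat minus cold, 1269 genes (23.3%) were higher and 1344 (24.7%) lower, and between its own windows the cold culture had 960 genes at least 2-fold apart. Of ribosome biogenesis genes 131 of 142 were higher and none lower. Their median was 1.38 in heat and -1.29 in cold. Of general stress genes 37 of 47 were lower, with medians of -0.94 in heat and 1.52 in cold, and of trehalose and glycogen genes 19 of 21, with -0.57 and 2.02. The cold culture's own late response enters this difference, and the part of each culture in it is given by these medians.

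The highest heat minus cold values were those of ribosome assembly factors and RFU1. SSF1 and SYO1, an importer of 2 ribosomal proteins, were at 5.25 ± 0.85 and 5.22 ± 1.12. LTV1 of 40S export, RFU1, an inhibitor of the ubiquitin protease Doa4, and the processome subunit UTP6 were at 4.77 ± 0.75, 4.70 ± 0.66 and 4.56 ± 0.74. On the other side SPG4, a stationary phase gene, was at -6.60 ± 0.86, CYC7 at -6.32 ± 0.94, RGI1 at -5.81 ± 0.63, PHM7 at -5.72 ± 0.81 and GSY1 at -5.28 ± 0.64. The adjusted p of these 10 genes ran from 4.7e-05 to 0.0018.

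SPG4 shows the contrast. In heat it had 9.13, 8.47 and 7.17 at 2, 4 and 8 h, against 9.86, 11.96 and 10.88 in the first hour, with 6.90 at 0 min. The heat difference was -2.65 ± 0.63 (adjusted p = 0.0674), and that in cold was 3.95.

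**Figure D5:**
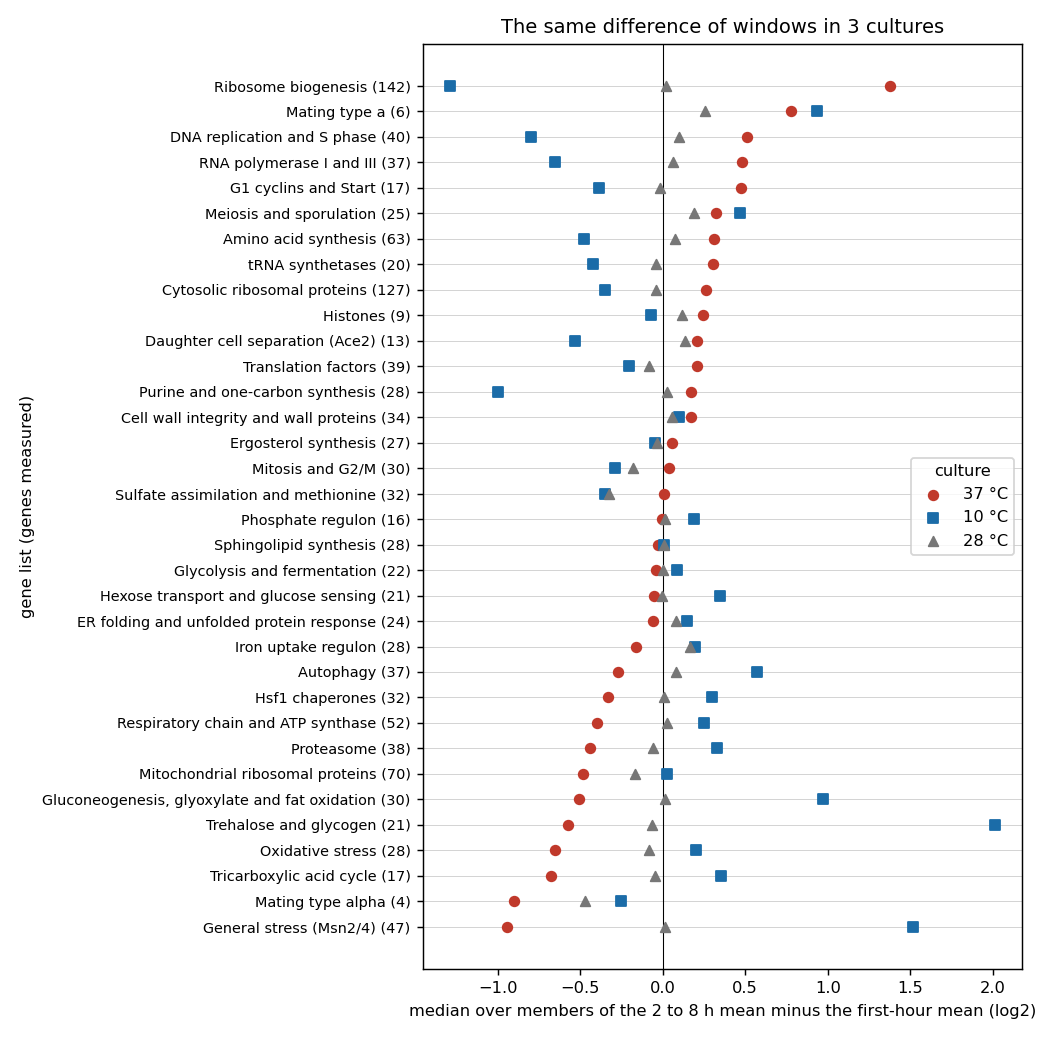
Median over the members of each gene list of the 2 to 8 h mean minus the first-hour mean (log2) in the 37 °C, 10 °C and 28 °C cultures, ordered by the heat value. Ribosome biogenesis is at 1.38, -1.29 and 0.02 and general stress at -0.94, 1.52 and 0.01 in these cultures, and the control values run from -0.47 to 0.26.

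No gene of the cell cycle lists passed. The 40 DNA replication and S phase genes had a median of 0.51 and 10 were higher without overlap (25.0%, against 16.6% of all genes). In heat minus cold 31 of the 40 were higher (against 23.3% of all genes). The 17 G1 genes had a median of 0.47 with 5 negative, and the 30 genes of mitosis and G2/M a median of 0.04 with 12 negative. DPB2, a subunit of DNA polymerase epsilon, had 11.09, 10.84 and 10.81, against 10.22, 8.96 and 9.81 (1.25 ± 0.31, adjusted p = 0.0742). The G1 cyclins CLN1 and CLN2, which drive entry into the cycle, both differed by 0.94 (SE 0.23 and 0.28, adjusted p = 0.0724 and 0.0962). YOX1, a repressor of early cycle genes, differed by 1.46 ± 0.26 (adjusted p = 0.0538).

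Other lists held few members that stood apart. In the cell wall list the median was 0.17 and no gene passed, and YPS3, a yapsin protease, had 12.04, 12.21 and 12.84, against 10.34, 8.20 and 10.43 (2.71 ± 0.58, adjusted p = 0.0618). SUR2, which hydroxylates sphingoid bases, differed by 1.12 ± 0.24 (adjusted p = 0.0624) in a list with a median of -0.03. Glycolysis, ergosterol, hexose transport, phosphate and unfolded protein response lists had medians between -0.06 and 0.05 and no gene passed. OLE1, the fatty acid desaturase, differed by 0.51 ± 0.40.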

How the data were processed

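The authors deposited log2 values, 1 per probe set and array, and the submitters' processing notes name RMA as the method. Its version, and whether the 3 cultures were normalized jointly, is not given in the sources used here. Scanner files were not analysed, and the number of arrays limits the precision. RMA aligns the distributions of arrays, so a shift of total RNA is not visible, and it compresses differences of dim genes.

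Of 10928 probe sets, 5498 name 1 yeast gene in the platform annotation, 1 names several, 1746 are for other species and 3683 are unnamed here. Probe sets of the 47 genes with more than 1 were averaged, giving 5449 genes. Symbols and neighbours came from RefSeq, assembly R64. The dim bound, 6.54, is set at percentile 95 of other-species probe sets, averaged over the 6 heat arrays.

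Differences were fitted with lmFit and eBayes of limma 3.58.1 in R 4.3.3 and adjusted by Benjamini-Hochberg over all genes. The heat fit had 6 arrays and 4 residual degrees of freedom, and the fit of heat, cold and control windows 18 arrays and 12. Both were tested on simulated data with known changes. In a list median, each member counts once. Alternatives were an intensity trend, array weights, renewed quantile normalization, dim genes left out, the brightest probe set, 24 h added, narrower windows, a slope on log2 time, the spread of 18 arrays, time as a block and each array left out.

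Named genes are the 15 highest and 15 lowest past the threshold without overlap of windows, above the dim bound and with a standard name, filled by smallest p and then given as not past it. To these come the 5 highest and 5 lowest of heat minus control and heat minus cold, the 2 members with the smallest p of each of 34 lists, and 13 stress and growth genes in any case. Other genes past a threshold, and genes singled out in the text, were added after their values were seen. The members, lists and rules were chosen with earlier results of these data known.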

Additional observations from a re-analysis of the deposited data

Results flagged for a closer look

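Differences between cultures that passed a test of the difference itself are listed here, as values. In heat minus control 9 genes passed: NAN1 (2.61), SPR28 (2.59), FIG1 (2.09), YNL277W-A (2.03), RRN11 (1.91), MMS21 (1.80), DCV1 (1.52), ECM11 (1.29) and YFR012W-A (0.89), all log2 differences of the late minus first-hour change. YNL277W-A had 7.76, 8.64 and 7.99 late in heat, against 5.56, 5.61 and 6.58 in the first hour, and lay between 7.72 and 8.21 over both windows of the control culture, which was amplified differently. For SPR28, MMS21, DCV1 and ECM11 all 8 control arrays lay below the dim bound. That bound was set on the heat arrays, and none was set for the control culture.

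In heat minus cold 2613 genes passed. The highest were SSF1 (5.25), SYO1 (5.22), LTV1 (4.77), RFU1 (4.70) and UTP6 (4.56), and the lowest SPG4 (-6.60), CYC7 (-6.32), RGI1 (-5.81), PHM7 (-5.72) and GSY1 (-5.28).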

How the results depend on the processing

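All 42 genes of the heat comparison kept their sign wherever they were tested. With an array left out, the sign cannot turn where the windows of a gene do not overlap. The count of calls moved with the setting. The count of 42 became 106 with an intensity trend, 112 with array weights, 1251 with the spread shared by 18 arrays, 25 with a slope on log2 time, and 0 with renewed quantile normalization, with the 24 h array added or with 30 and 60 min against 4 and 8 h. Leaving out 1 array gave 0 to 41. With dim genes left out 34 of the 42 were tested and 29 passed. The control count of 0 became 1732 with array weights. The 9 genes of heat minus control became 5 with the trend, 582 with weights, 1 with renewed quantile normalization, 1 without dim genes, 3 with 24 h added, 97 with narrower windows, and 1 to 146 with an array left out. The 2613 genes of heat minus cold became 1546 with 24 h added. The share of displaced genes that returned, 54.1%, became 79.7% with a 2-fold limit and 39.2% for 4-fold displaced genes. The cause of these shifts was not tested.

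Signs turned in 4 of the named genes, none of them past the threshold. HSP26 (-0.04) became 0.19 with array weights, 0.0709 with 24 h added, 0.0597 as a slope, and -0.37 to 0.16 with an array left out (0.08, 0.16 and 0.12 without the 30 min, 60 min and 8 h array). RPN4 became 0.10 with 24 h added and -0.56 to 0.0031 with an array left out, the last without the 4 h array, and JEN1 and MTH1 became 0.51 and 0.31 with 24 h added. Of the single-gene values 1438 kept direction and side of the threshold, 111 passed newly and 380 no longer passed. The labels give no replicate numbers, but the cultures share sampling times. With the time point as a block, 8 genes passed in heat minus control, 7 of them among the 9, and 2689 in heat minus cold. Of the fits with array weights, 3 did not converge.

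The arrays have 1 sample per time, so a change between neighbouring times cannot be told from array error. Levels under 6.54 carry only a bound, and levels over 14 lie near the top of the scale.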

Other observations

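Nitrogen catabolite genes, whose products take up and break down poor nitrogen sources, were chosen after several were seen with high late values, so their counts support nothing. Of 25 such genes none passed the threshold, and the median difference was 0.57, against 0.10 in the control culture. Without overlap, 11 were higher (44.0%, against 16.6% of all genes) and 2 lower (8.0%, against 16.7%). MEP2, an ammonium permease, had 14.19, 14.15 and 14.47 at 2, 4 and 8 h, against 13.49, 12.81 and 12.99 in the first hour (1.17 ± 0.22, limma adjusted p = 0.0544). DAL1, the allantoinase, had 9.84, 10.18 and 11.07, against 7.86, 8.89 and 8.94 (1.80 ± 0.40, adjusted p = 0.0624). The repressor DAL80 differed by 1.28 ± 0.32 in heat and by 1.38 in the control culture. PUT4, the proline permease, had 13.49, 13.28 and 11.72, against 13.65, 13.91 and 13.79 (-0.95 ± 0.44).

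The histone genes had a dip at 1 time. Their median change from the start was 0.05, -0.10 and -1.60 at 15, 30 and 60 min and 0.02, -0.02 and -0.64 at 2, 4 and 8 h. HTB1, a gene for H2B, had the lowest value at 60 min (-2.34 in heat, 0.15 in cold and -0.06 in the control culture, each from its own start). HTA1 differed between the windows by 0.67 ± 0.37 (adjusted p = 0.286). The dip rests on the single 60 min array, and it was not tested.

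The alpha-factor gene MF(ALPHA)2 did not pass the threshold. In heat it had 10.53, 9.02 and 8.05 at 2, 4 and 8 h, against 12.76, 11.39 and 10.62 at 15, 30 and 60 min (difference -2.39 ± 0.71, adjusted p = 0.0962). In the control culture it was at 14.26, 14.01 and 12.61 at 2, 4 and 8 h, against 14.30, 14.25 and 14.13 in the first hour. STE2, the receptor of a cells for that factor, had 10.15, 9.24 and 10.91 late in heat, against 8.90, 8.21 and 9.62 (1.19 ± 0.48, adjusted p = 0.169).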
